A study of Drosophila melanogaster with 2 samples.

Results

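The loci described here are those of 5 genes for signalling ligands, dpp, wg, hh, Dl and Ser. The question was how many regions that the authors called as enriched with an antibody against the Hox factor Deformed lay in them. It was also asked how strong these regions were. A locus was a fixed window of the chromosome arm, and its members were the regions whose centre fell in it. Regions were thus assigned by position alone and by no measured value. The loci themselves were chosen with earlier results of these data known. Over the 5 windows, 402 kb in all, 5 of the 1079 regions of the stricter deposited list and 8 of the 3898 regions of the larger list were members. The lists were called by the authors from the same libraries at p-value cutoffs of 0.0001 and 0.001, which are scores of 40 and 30. For each region they give the Deformed tags (aligned reads) in it, the score, and the fold of its summit over the local background. They also give a false discovery rate, described further below, which was 100% for every member in both lists. A member is therefore a called region and not an established binding site. The study compared 1 chromatin immunoprecipitation (ChIP) library made with a guinea pig antibody against Deformed, of 15547495 tags after duplicate filtering, with 1 library from a mock precipitation, in which guinea pig IgG took the antibody's place, of 12694075 tags. Both came from wild-type Oregon R Drosophila melanogaster embryos of 5 to 9.5 hours, at stages 9 to 12. Each group had 1 library, so no value below has a replicate error and no test between libraries was possible. The chromatin came from whole embryos, so a region cannot be placed in the head segments or in any other cells from these data.

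Deformed is the Hox protein that sets the identity of the mandibular and maxillary head segments. Segments shaped by Hox proteins also depend on signals between cells. Decapentaplegic (dpp) is a secreted ligand of the bone morphogenetic protein family, Wingless (wg) is the founding fly Wnt ligand, and Hedgehog (hh) is the secreted signal of the posterior cells of each segment. Delta (Dl) and Serrate (Ser) are membrane-bound ligands of the receptor Notch. Hox proteins are known to act on several of these genes in the embryo, among them dpp and wg in the midgut mesoderm and Ser in the epidermis.

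The windows were 2L 2400000 to 2490000 for dpp, 2L 7277000 to 7347000 for wg, 3R 18925000 to 18998000 for hh, 3R 15120000 to 15205000 for Dl and 3R 22962000 to 23046000 for Ser. These are in the files' own coordinates, on a build not given in the sources used here, and the windows take it to be Release 5. In a gene table of Release 6, in which Dl is listed as Delta, dpp and wg also lie inside the windows given, while hh, Dl and Ser do not. On 3R, 564 of 4226 genes of that table start past the last deposited region, against 11 of 3508 on 2L. The names of the 3R loci therefore rest on the build more than those of the 2L loci do. In that table the nearest protein-coding neighbours are CG44139 and Slh for dpp, Wnt4 and Wnt6 for wg, CG31457 and unk for hh, CG44174 and CG43203 for Dl, and spn-D and CG42813 for Ser. No annotation of the files' build was used here, so no region was placed in an exon, an intron or a neighbouring gene.

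The ligand loci held few regions. In the stricter list the windows had 0 regions at dpp, 0 at wg, 2 at hh, 1 at Dl and 2 at Ser. In the larger list they had 2 at dpp, 1 at wg, 2 at hh, 2 at Dl and 1 at Ser. Uniform placement along the same arms would give 3.26 regions over the 5 windows in the stricter list, where 5 were found (95% exact Poisson interval 1.62 to 11.7, a ratio of 1.53). It would give 14.1 in the larger list, where 8 were found (3.45 to 15.8, a ratio of 0.568). Both expected numbers lie inside the intervals of the counts, so neither an excess nor a shortage was detectable with so few regions. The intervals cover counting error only. The ratio stood above 1 in the list with the stricter cutoff and below 1 in the other.

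**Figure D1:**
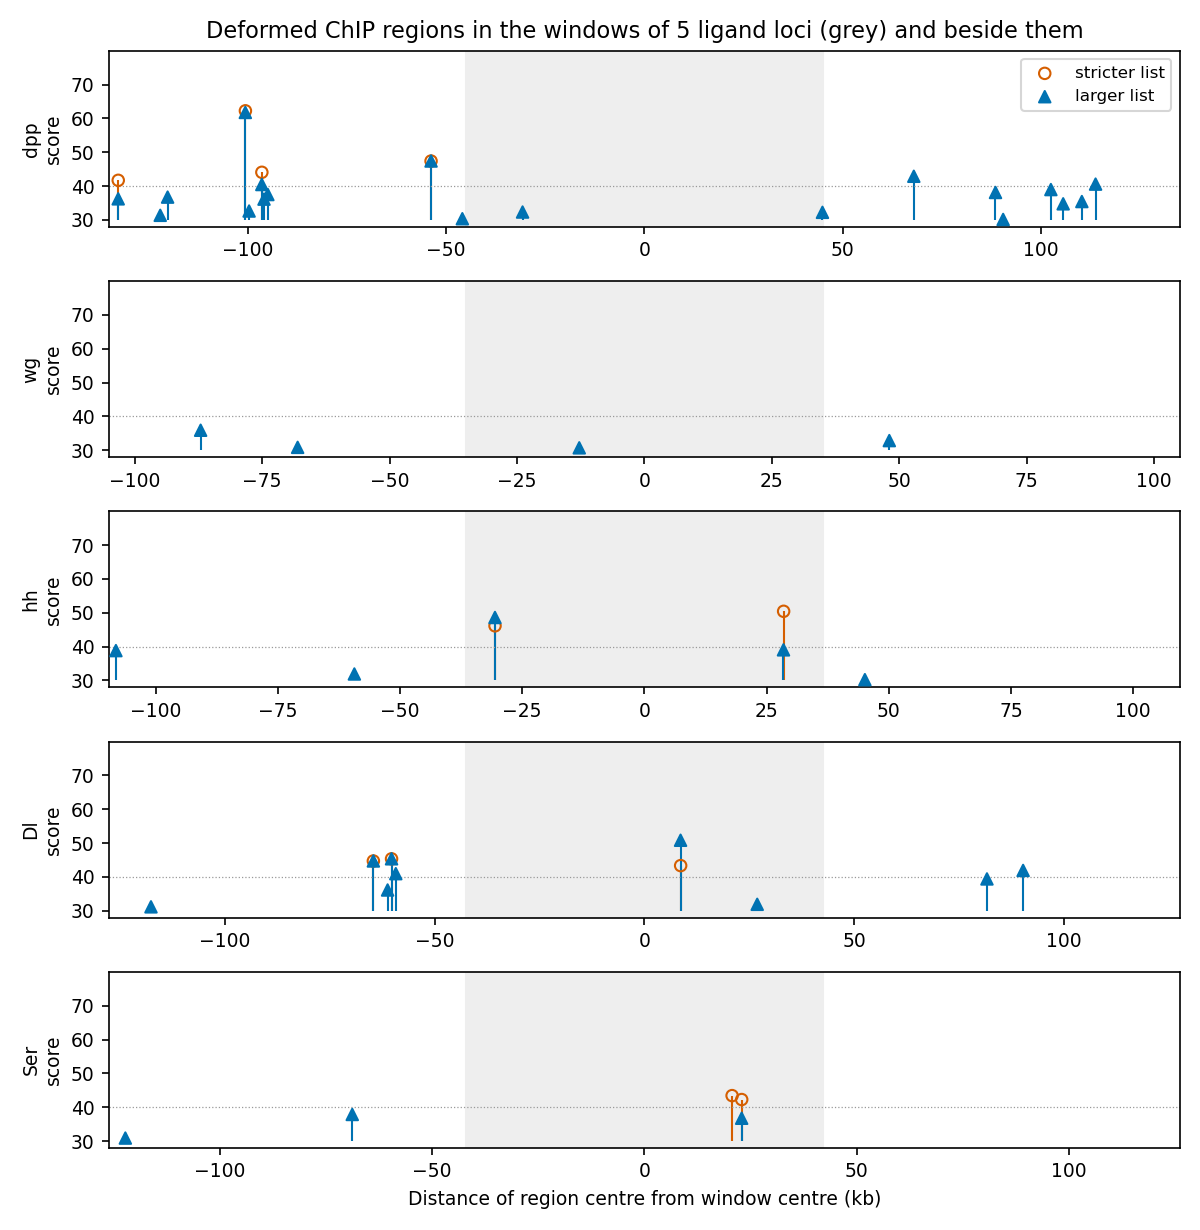
Each row is 1 locus, with the window in grey and a stretch of the same length on each side; the horizontal axis is the distance of a region's centre from the window's centre in kb and the vertical axis is the authors' score, which grows by 10 for each factor of 10 in the p-value. Open circles are regions of the stricter list and filled triangles those of the larger list; the dotted line marks a score of 40. The dpp window holds 2 low regions while 10 and 7 regions of the larger list stand on its sides, and the highest member, at Dl, reaches 50.84.

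The dpp window contained no stricter region and 2 regions of the larger list. The first, at 2L 2414137 to 2414376, held 25 tags (95% Poisson interval 16.2 to 36.9) at a fold of 4.59 over local background and a score of 32.33. The second, at 2L 2489758 to 2490024, held 29 tags (19.4 to 41.6) at a fold of 3.48 and a score of 32.24. Both scores were within 2.33 of the cutoff of 30, and the regions ranked 2975 and 3005 of 3898. Their place in the window differed, since the first lay 14.26 kb from the low end and the second only 0.109 kb from the high end. The nearest larger-list region outside was 0.93 kb from the low end, at 2L 2398977 to 2399155, with 18 tags and a score of 30.35. In the larger list the dpp window was poorer in regions than the chromosome beside it. The stretches of equal length on its low and high sides held 10 and 7 regions, against 2 in the window. In the stricter list they held 4 and 0, against 0 in the window. The count depended on the window's ends: widened by 10 kb on each side, it held 4 larger-list regions and 1 stricter region. The difference from the sides was not tested. Of the 233 tiles of that length on 2L outside the 2 Mb next to the centromere, 72.5% held at least 2 larger-list regions, as the dpp window did, and 55.8% held no stricter region. The tiles given for the other loci leave out the same 2 Mb of their arm.

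The wg window had 1 region, in the larger list only, at 2L 7299134 to 7299286. It held 16 tags (9.15 to 26.0) at a fold of 4.42, and its score of 30.7 was 0.7 above the cutoff. It ranked 3583 of 3898, the lowest rank and the fewest tags of the 8 larger-list members. The surroundings of wg were as sparse as the window, with 2 and 1 regions of the larger list and 0 and 0 of the stricter list in the stretches on either side. At least 1 larger-list region was present in 84.0% of the 300 tiles of this length on 2L, and 62.0% had no stricter region.

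The hh window had 2 regions, each present in both lists. The first was called at 3R 18930853 to 18931016 in the stricter list, with 21 tags (13.0 to 32.1), a fold of 6.29 and a score of 46.16, and at 18930823 to 18931016 in the larger list, with 24 tags and a score of 48.62. The second was called at 3R 18989900 to 18990039 in the stricter list, with 19 tags (11.4 to 29.7), a fold of 5.84 and a score of 50.45, and at 18989843 to 18990039 in the larger list, with 21 tags and a score of 39.06. These were the highest folds among the members, at the percentiles 93.3 and 85.4 of the other distal regions of 2L and 3R in the stricter list and 98.6 and 96.3 in the larger list, where distal means outside the 2 Mb next to the centromere. The regions stood 58.9 kb apart, 5.92 kb from the low end and 8.059 kb from the high end of the window by their larger-list centres. Of the 354 tiles of this length on 3R, 9.89% held at least 2 stricter regions and 63.0% at least 2 larger-list regions. No stricter region lay in the stretch of equal length on either side. The next one was 98.47 kb from the window on the low side and 445.42 kb on the high side. The one on the low side had 32 tags and a score of 66.32, above those of both hh regions.

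The Dl window had 1 region in the stricter list and 2 in the larger list. The region in both lists was called at 3R 15171026 to 15171216 in the stricter list, with 21 tags (13.0 to 32.1), a fold of 4.67 and a score of 43.35. In the larger list it was called at 15170953 to 15171238, with 31 tags (21.1 to 44.0), a fold of 4.55 and a score of 50.84, and there it ranked 547 of 3898, the highest rank of the members. The other larger-list region, at 3R 15189257 to 15189464, held 23 tags (14.6 to 34.5) at a fold of 3.69 and a score of 31.91. It lay 18.0 kb from the first. Among the 304 tiles of this length on 3R, 38.2% held at least 1 stricter region and 67.8% at least 2 larger-list regions. Beside the window, the low side had 2 stricter and 5 larger-list regions and the high side 0 and 2.

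The Ser window was the only one of the 5 with more regions in the stricter list than in the larger list, 2 against 1. The first stricter region, at 3R 23024565 to 23024698, held 18 tags (10.7 to 28.4) at a fold of 4.57 and a score of 43.43. No region of the larger list overlapped it, although both lists come from the same libraries. This was so for 22 of the 334 distal stricter regions of 2L and 3R, this one included, and is not particular to Ser. The second stricter region, at 3R 23026805 to 23026980, held 23 tags (14.6 to 34.5) at a fold of 4.06 and a score of 42.27. It was called at 23026780 to 23026980 in the larger list, with 25 tags, a fold of 3.78 and a score of 36.74. The stricter pair stood 2.11 kb apart, while the median distance from a distal stricter region of 2L or 3R to its nearest neighbour was 36.3 kb. Of 334 such regions 11, or 3.29%, these 2 included, had a neighbour as close. Spacing was not among the planned measures and was compared for this pair alone. The share is a description and not a test. Outside the window the nearest stricter regions were 516.77 and 593.0 kb away. At least 2 stricter regions were present in 13.0% of the 307 tiles of this length on 3R, and at least 1 larger-list region in 87.9%.

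**Figure D2:**
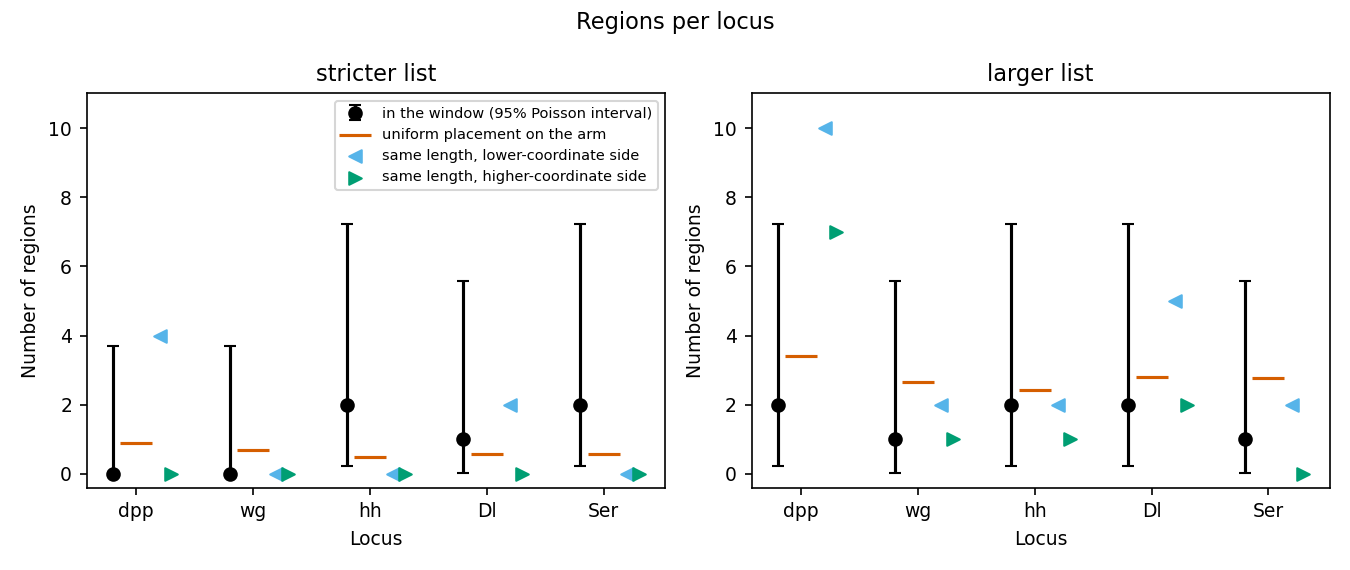
The number of regions is shown for each locus in the stricter list (left) and the larger list (right): black points give the count in the window with its 95% exact Poisson interval, orange bars the number that uniform placement on the arm would give, and triangles the counts in stretches of equal length on either side. Each expected number lies within the interval of its window's count; the 10 regions on the low side of dpp in the larger list are the highest count shown.

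By arm, the 5 stricter members were at the 3R loci, where uniform placement would give 1.65 (95% Poisson interval of the count 1.62 to 11.7), and 0 were at the 2L loci, where it would give 1.61 (upper limit 3.69). The comparison of arms was made after the counts were seen. In the larger list the 3R loci had 5 regions against 8.01 expected, and the 2L loci 3 against 6.07. Grouped by kind of ligand, the windows of the Notch ligands Dl and Ser held 3 stricter regions against 1.15 expected (interval 0.619 to 8.77), and those of the secreted ligands dpp, wg and hh held 2 against 2.11 (0.242 to 7.22). In the larger list the counts were 3 against 5.59 and 5 against 8.49. Without the proximal 2 Mb of each arm, the expected stricter numbers were 1.64 at the 3R loci and 1.21 at the 2L loci. They were 1.14 for the Notch ligands and 1.71 for dpp, wg and hh. The ratio for dpp, wg and hh then went from 0.947 to 1.17. The difference between the kinds of ligand was not tested.

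The medians of the members' tags, fold and score lay within the quartiles of the other distal regions of 2L and 3R, while single members, above all the hh regions with the high folds given above, lay outside them. The stricter members were shorter, with a median length of 164 bases against 189 elsewhere (quartiles 162 and 221), and 2 of them, at 140 (hh) and 134 bases (Ser), were below the first quartile. Median lengths in the larger list were 204.5 bases for the members and 201 elsewhere. The stricter members had a median of 21 tags, and the 329 other distal stricter regions of 2L and 3R had a median of 23 (quartiles 20 and 28). Their median fold was 4.67 against 4.98 elsewhere (quartiles 4.54 and 5.55), and their median score 43.43 against 45.67. In the larger list the 8 members had a median of 24.5 tags, against 22 in the 1587 other distal regions, with median folds of 4.485 and 4.38 and median scores of 34.53 and 35.48. These are descriptions of the called regions, and no test between regions was made. A score of at least 50 was given to 1 of the 5 stricter members, the second hh region, and to 31.7% of distal stricter regions. It was given to 1 of the 8 larger-list members, the first Dl region, and to 8.4% of distal larger-list regions, while a score of at least 40 was given to 2 of the 8 and to 27.8%. The false discovery rate, by which the caller sets regions found with the libraries exchanged against those found as labelled, is also the authors' value. In the authors' deposited table it was 100% for every member in both lists. It was below 100% for 0 of the 334 distal stricter regions and 0 of the 1595 distal larger-list regions of these arms, a background of 0%, and for 1.85% of the whole stricter list and 0.539% of the whole larger list.

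The tag counts of the members were close to or below what their lengths would hold at the mean density of the library. That mean was 13.0 tags per 100 bases over the 120 Mb effective genome. The stricter members held between 0.849 (Dl) and 1.05 (the second hh region) times that mean, and the 3 between them included both Ser regions, at 1.04 and 1.01. The larger-list members held between 0.804 (the first dpp region) and 0.96 (Ser) times the mean. The Poisson interval of each member included 1, which is no test of enrichment, because called regions in general lay near or below this mean. Over the whole lists the median was 1.008 (stricter) and 0.8548 (larger), and the third quartile of the larger list was 0.9301. Most called regions of the larger list thus lay below the mean. It is therefore no baseline from which a member can be called enriched or not enriched. In the stricter list the members' median was 1.009, above the third quartile of the other distal regions, 1.001 (median 0.9461). This density is tags over length, and these 5 members had fewer tags in shorter regions (medians of 21 against 23 tags and 164 against 189 bases). It is therefore not a trait separate from their length. For the larger list the members' median was 0.8375 and that of the other distal regions 0.8406. The deposited folds, from 3.48 to 6.29, set the summit of a region against a local background and are another quantity. How many IgG tags each region held was not analysed here.

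**Figure D3:**
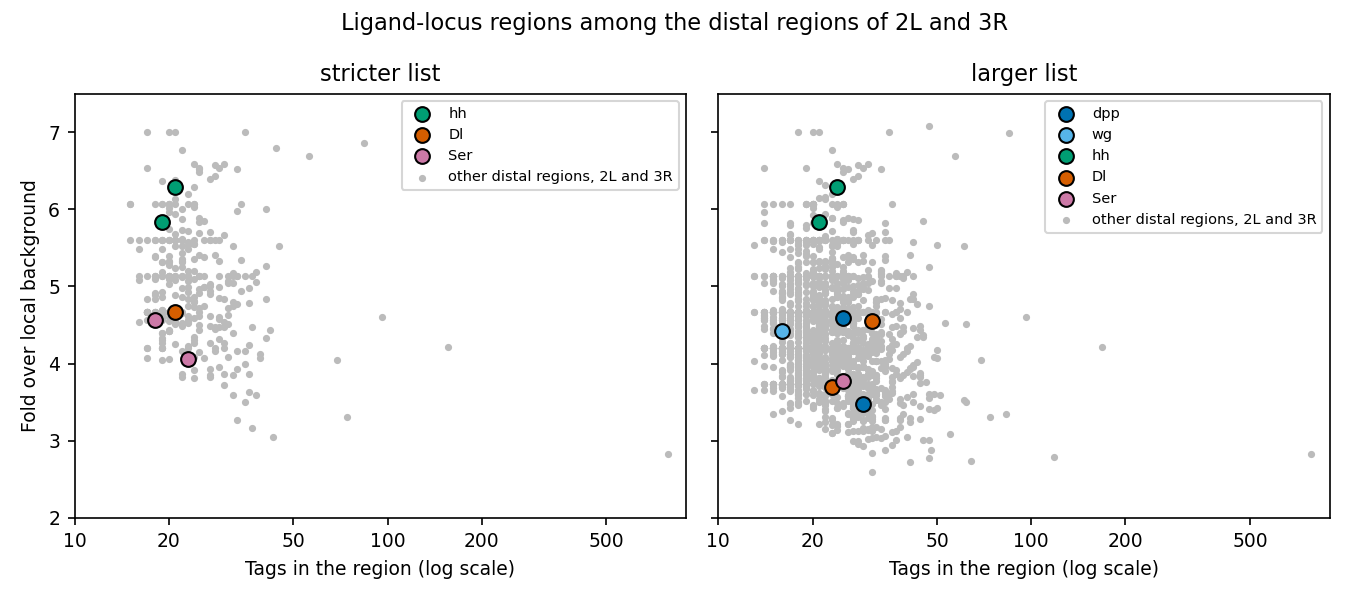
Each point is a distal region of 2L or 3R, with its tags on a log axis and its fold over local background on the vertical axis, in the stricter list (left) and the larger list (right); large coloured points are the members by locus and grey points the other regions. The members lie among the grey points in both lists, with the hh regions at folds of 6.29 and 5.84 near the upper edge.

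The 2 lists come from the same libraries, and the places found in both were compared between them. Of the 8 larger-list members 4 overlapped a stricter region, namely 2 at hh, 1 at Dl and 1 at Ser, which is 50% beside 19.6% of all distal larger-list regions of these arms. Of the 5 stricter members 4 overlapped a larger-list region, 80% beside 93.4% of the distal ones. The 4 shared places had the same summit to within 3 bases, and 2 of the 4, both at hh, had the same fold in both lists, as did 73.4% of the 312 distal pairs of 2L and 3R. The scores of all 4 differed: the stricter list gave 50.45 against 39.06 for the second hh region and 42.27 against 36.74 for the Ser region. It gave 46.16 against 48.62 for the first hh region and 43.35 against 50.84 for the Dl region. The order of the members by score therefore differed, with the second hh region first in the stricter list and the Dl region first in the larger list. Among the 312 distal pairs the score was higher in the stricter list in 42.0%, equal in 33.0% and lower in 25.0%. In 17.6% of these pairs, as for the second hh and the Ser region, the larger list gave a score under 40 to a place that passed 40 in the stricter list.

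**Figure D4:**
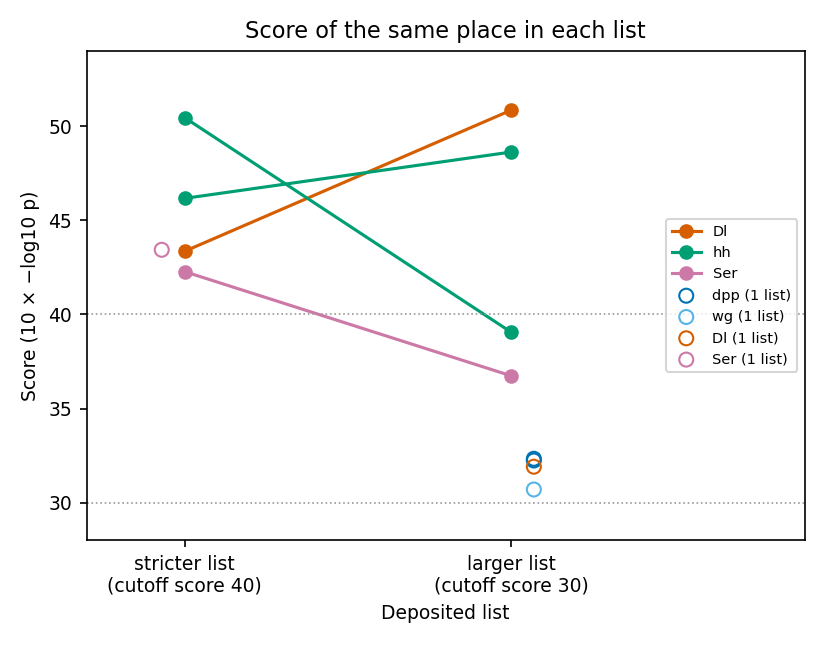
The score of each member is plotted in the stricter list (left) and the larger list (right), with lines joining the 4 places found in both and open circles for places found in 1 list; dotted lines mark the cutoff scores of 40 and 30. The lines cross: the second hh region has 50.45 and 39.06, and the Dl region has 43.35 and 50.84.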

How the data were processed

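Chromatin immunoprecipitation of wild-type embryos gave 1 Deformed and 1 mock IgG library. Bowtie aligned the reads, per the submitters' processing notes. Per the file headers, MACS 1.4.0beta then called regions in the Deformed sample over the IgG sample, using 50-base fragments, local backgrounds over 1000 and 10000 bases and p-value cutoffs of 0.0001 (stricter list) and 0.001 (larger list). The genome build is not given in the sources used here. Per the file headers, at most 4 Deformed tags and 3 control tags were kept at a position. This took the Deformed library from 20112283 to 15547495 tags and the control library from 13016695 to 12694075. The Deformed library thus lost the larger part of its tags as duplicates. After filtering it was 1.22 times as deep as the control library. The authors deposited, for each region, a whole-number tag count, a score (the p-value as −log10, multiplied by 10), a fold ratio over local background and a false discovery rate in percent. These values are the authors' own and are used to describe and rank regions within a list.

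From these, regions were assigned to windows by their centre and ranked by score, then fold, then tags. Expected numbers were the regions of the arm times the window's share of its length, an arm being taken to end where its last deposited region ends. Tiles were consecutive, non-overlapping stretches as long as a window. Intervals for tags and counts are exact Poisson 95% intervals and cover counting error only. Overlap meant at least 1 shared base. Counting was checked on simulated data. All steps ran in Python 3.11.15, with pandas 2.3.3 and numpy 2.4.6 for counting, scipy 1.17.1 for intervals and matplotlib 3.10.9 for plots. The loci and measures were chosen with earlier results of these data known; only the 5 ligand genes were named with values, and all their regions are given. Sequence motifs in the regions and regions at other genes of the ligands' pathways were planned for a genome or annotation of the files' build and were not analysed here.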

Additional observations from a re-analysis of the deposited data

How the results depend on the processing

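The counts over the 5 windows depended on where a window or a cutoff ended. With windows narrowed by 10 kb on each side, the stricter list gave 3 regions in place of 5 and the larger list 5 in place of 8, and both hh regions were lost. A score of at least 50 left 1 stricter region, at hh, and 1 larger-list region, at Dl; the higher-scoring 50% of the stricter list left 1, and a score of at least 40 left 2 of the larger list. Counting places called in either list, an alternative chosen after seeing the data, gave 9. These changes follow from how the alternatives are built. Of 18 recomputed values over all loci, 11 stayed close to the reported value, which meant within 1.5 times for a count and within the counting interval for a ratio of observed to expected. They include windows widened by 10 kb (6 stricter and 11 larger-list regions), membership by any overlap (5 and 8), merging of regions less than 1 kb apart (5 and 8) and the larger list at 20 or more tags (7). With expected numbers from arms without the proximal 2 Mb, the ratios were 1.75 (stricter) and 0.586 (larger). Of 75 recomputed counts of single loci, 26 moved by more than 1.5 times or to or away from 0, as small counts must. Shared members stayed at 4 when 50% of both lengths had to overlap. No paired analysis was possible because each group has 1 library. The members held 16 to 31 tags each, so their tag counts are known only coarsely.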

Other observations

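The dpp window had neighbours of higher score than its own members. On its low side the larger list had a region with a score of 61.76 and the stricter list one of 62.25 at the same place, at -100.66 kb and -100.64 kb from the window's centre, whereas the highest score inside the window was 32.33. The genes at that place were not named here, and whether the difference between the window and its sides exceeds what placement gives was not tested.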
